A study of Mus musculus with 4 samples.

Results

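The prolactin and growth hormone receptor genes, the STAT5 transcription factor genes below them and their response genes were examined in mouse pancreatic islets. The members were chosen by gene symbol as Prlr, Ghr, Stat5a, Stat5b, Cish, Socs2, Tph1 and Tph2, and all 8 have a row among the 32285 genes of each matrix. The study compared islets of wildtype (WT) mice with islets of mice homozygous for a knock-in missense allele of Pax4 (HH), a transcription factor gene of endocrine development, on C57BL6/N background. The WT SCD and HH SCD libraries came from male mice of 12 weeks on standard chow diet (SCD), and the WT HFD and HH HFD libraries from male mice of 16 weeks after 4 weeks of high-fat diet (HFD). Each group was 1 droplet 3-prime single-cell RNA library made from the pooled islets of 2 to 3 mice. Diet and age therefore cannot be told apart, no spread between animals of a group was measured, and every interval given between libraries covers counting error only.

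Prolactin, placental lactogens and growth hormone bind single-pass receptors of the class I cytokine receptor family that carry the kinase JAK2. Active JAK2 phosphorylates STAT5A and STAT5B, which enter the nucleus and bind DNA at palindromic TTCNNNGAA sites. Cish and Socs2, which encode SH2 domain inhibitors of the same receptors, are among the best known STAT5 target genes. In the beta cell, lactogens act through the prolactin receptor during pregnancy and induce Tph1, which encodes the first enzyme of serotonin synthesis. Tph2 encodes the tryptophan hydroxylase of neurons.

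The Cish sequence is shown because its start carries repeated copies of the STAT5 site, and the Prlr sequence because Prlr is the receptor on which the results turn. Both come from the RefSeq promoter table of GRCm38.p6, read 5′ to 3′ on the plus strand, with each TTCNNNGAA match in capitals.
Cish, chr9:107296654-107296683: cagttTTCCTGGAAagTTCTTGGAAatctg
Prlr, chr15:10223785-10223814: ggcaaaatgagTTCTAGGAAtaagggatat
The matches in Cish began at positions 1 and 12 of the annotated RefSeq transcript start, where the GENCODE annotation has untranslated exon sequence of 1 transcript. The match in Prlr began 110 bases before the second of 3 annotated starts, counted as -110, outside the annotated exons. TTCNNNGAA is its own reverse complement, so a search of 1 strand covers both. Of 32851 promoter windows of 300 bases, 2726 (8.30%) held at least 1 match and 150 (0.457%) held 2 or more. Windows were given for 7 of the 8 members, 13 windows in all, and no match was found for Ghr, Stat5a, Stat5b, Tph1 and Tph2. A window for Socs2 was not analysed here.

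The 4 matrices held 22218 barcodes, of which 12168 were used after filters on mitochondrial share, UMIs, genes and doublets. The filter kept 38.3% of the WT HFD barcodes and 61.6% to 67.8% of those of the other libraries. Cells were grouped by their dominant hormone, which gave 7861 insulin cells (Ins1 plus Ins2), 1561 glucagon cells, 1051 somatostatin cells, 507 pancreatic polypeptide (PP) cells and 1038 hormone-free cells, while 150 cells with mixed hormones were left out. Markers other than the hormones matched the groups: Mafa stood at 194 to 394 CPM, the UMIs of a gene per 1000000 UMIs, in insulin cells and at 3.60 to 11.2 CPM in somatostatin cells, in which Hhex stood at 252 to 310 CPM. Iapp, a beta cell marker, was also high in somatostatin cells, at 25451 to 29504 CPM, and the delta markers Cckbr and Lepr were at 0 there. WT SCD gave 1993 insulin cells, HH SCD 1957, WT HFD 1101 and HH HFD 2810, with median depths of 24065.5 to 29683 UMIs per cell. Library pairs shared 6 to 11 barcodes, and 0 to 4 among the cells used.

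Prlr, the receptor of prolactin and placental lactogens (chromosome 15, 10177238 to 10349180, plus strand), was a gene of the insulin cells. Its level in these cells was 461 CPM in WT SCD, 453 CPM in HH SCD, 386 CPM in WT HFD and 307 CPM in HH HFD. In every library this lay far above the summed level of each other group, of which the highest was 17.6 CPM. Glucagon cells held 4.72 to 7.32 CPM, somatostatin cells 7.19 to 14.98 CPM, PP cells 5.82 to 17.6 CPM and hormone-free cells 5.52 to 17.1 CPM. The ranges of these 4 groups overlapped. Within the hormone-free cells, 42 PP-like cells, a cluster led by Chgb, Folr1 and Pyy, stood apart with 71.4 CPM (counting interval 45.8 to 106, 24 UMIs). Their level was 101 CPM in WT SCD, 29.0 CPM in HH SCD, 92.3 CPM in WT HFD and 53.5 CPM in HH HFD, on 2 to 12 UMIs per library. The remaining hormone-free cells held 4.80 to 9.97 CPM. UMIs of the long and short receptor isoforms are summed in this row. The gene overlaps the predicted gene Gm21973 on the same strand, which has no row in the matrices.

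The difference between cell groups was tested with edgeR's quasi-likelihood test on UMI sums per library and group, with the library as block and Benjamini-Hochberg adjustment over 12660 genes. Prlr was higher in insulin cells than in glucagon cells by 6.63 on the log2 scale (SE 0.19, adjusted p = 6.2e-16), with the direction seen in 4 of 4 libraries. The difference was 6.19 against somatostatin cells (SE 0.19, adjusted p = 2.8e-15), 5.42 against PP cells (SE 0.19, adjusted p = 2.9e-14) and 6.25 against hormone-free cells (SE 0.20, adjusted p = 7.0e-16). Genes called higher in insulin cells made up 26.7%, 26.2%, 23.5% and 37.7% of all genes tested in these contrasts, and genes called lower 23.9%, 25.0%, 20.6% and 38.8%. The split of calls depended on the scaling: with total counts in place of TMM factors the share of calls that were higher went from 52.7% to 13.9% against glucagon cells, from 51.2% to 6.18% against somatostatin cells, from 53.3% to 25.1% against PP cells and from 49.3% to 16.3% against hormone-free cells. With total counts the Prlr differences were 6.03, 5.22, 5.11 and 5.18. Beside the TMM shares, 4 of the 6 members tested were higher and 0 lower against glucagon cells, 4 and 0 against somatostatin cells, 5 and 0 against PP cells, and 2 and 2 against hormone-free cells. With total counts the members higher and lower numbered 3 and 0, 1 and 3, 4 and 0, and 2 and 4, in the same order, beside 9.60%, 4.98%, 12.1% and 13.6% of all genes higher and 59.3%, 75.5%, 36.0% and 70.0% lower.

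**Figure D1:**
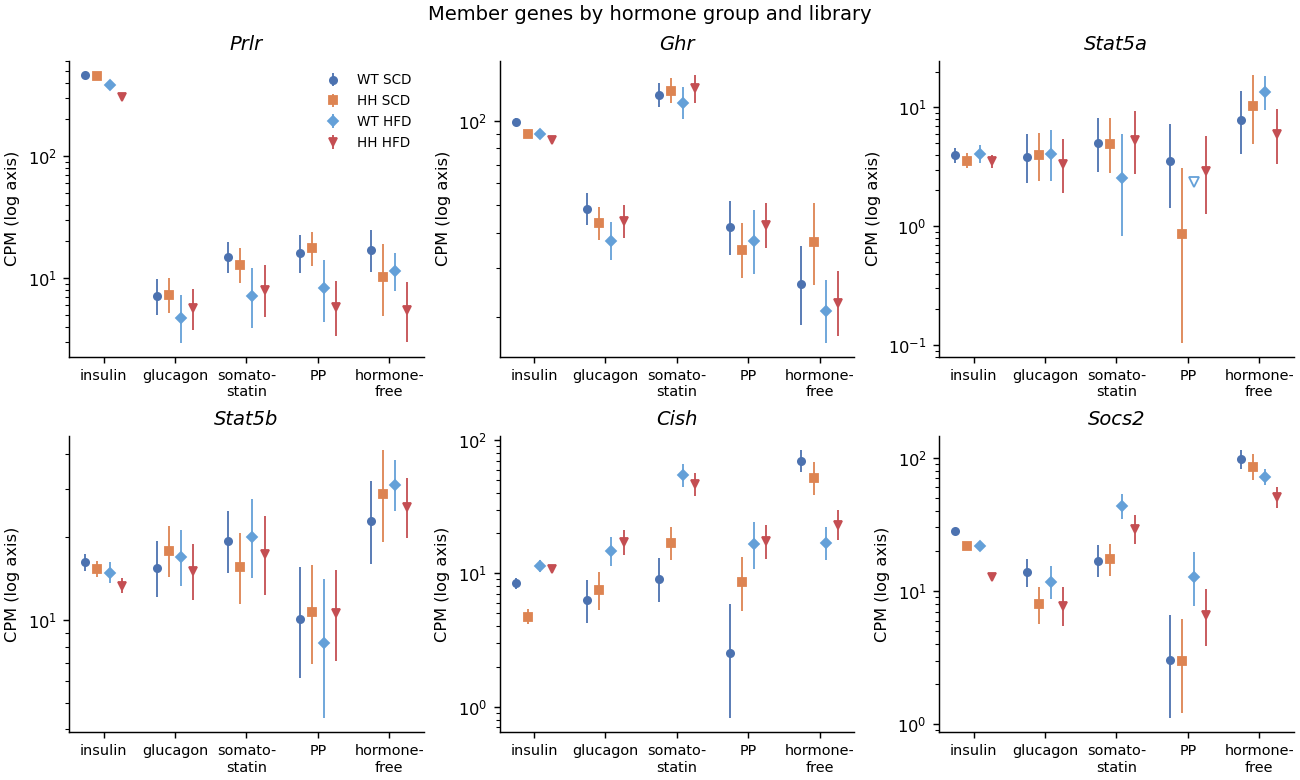
Level of 6 member genes (CPM, log axis) in 5 cell groups, with 1 symbol for each library and bars for 95% Poisson counting intervals. An open triangle marks the upper bound where no UMI was counted. Prlr stood at 307 to 461 CPM in insulin cells and at or below 17.6 CPM in the sums of the other 4 groups, while Ghr, Cish and Socs2 were measured in every group.

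Insulin transcripts in droplets of other cells gave a measure of how much insulin cell RNA those droplets held. Ins1 and Ins2 UMIs amounted to 1.20% to 3.08% of their insulin cell share in the other groups. Multiplied by the Prlr level of insulin cells of the same library, this share gives 11.2, 9.53, 5.85 and 5.67 CPM for glucagon cells of WT SCD, HH SCD, WT HFD and HH HFD, and the observed values were 7.09, 7.32, 4.72 and 5.64 CPM. For glucagon cells the value so obtained was 101% to 157% of the observed Prlr level, so it was at least as large in every library. It was 81.0% to 108% in somatostatin cells, 79.5% to 119% in hormone-free cells and 50.2% to 87.0% in PP cells. Of these sums, PP cells of HH SCD had the widest gap, with 17.6 CPM observed (counting interval 12.6 to 23.8) against 8.81 CPM. For the PP-like cells among the hormone-free cells the insulin transcripts gave 13.8, 7.999, 9.94 and 7.31 CPM in WT SCD, HH SCD, WT HFD and HH HFD, and the counting intervals of the observed Prlr level lay above this in WT SCD (52.0 to 176) and WT HFD (37.1 to 190) and included it in HH SCD and HH HFD. Insulin cell RNA was also subtracted from the other groups before the test. This could only lower Prlr in those groups, so the run was no check on the differences, which stayed past the threshold in all 4 contrasts.

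**Figure D2:**
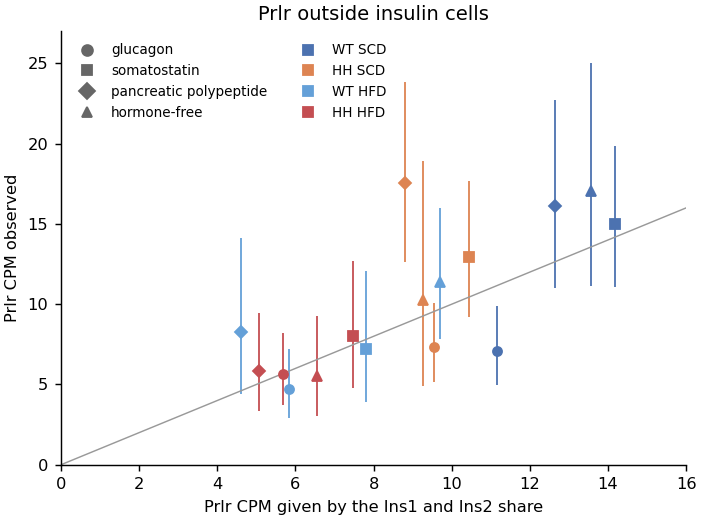
Prlr level observed outside insulin cells (CPM, vertical axis, bars are 95% Poisson intervals) against the level that the Ins1 and Ins2 share of the same cells gives (CPM, horizontal axis). Symbols stand for cell groups, colours for libraries, and the line marks equality. Glucagon cells lie on or below the line, and PP cells of HH SCD, at 17.6 CPM, lie highest above it.

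Prlr was found in most single insulin cells. With every cell thinned to 3000 UMIs, 70.8% of the WT SCD insulin cells held a Prlr UMI (exact Clopper-Pearson interval 68.7% to 72.8%), 69.3% in HH SCD (67.2% to 71.3%), 63.6% in WT HFD (60.7% to 66.4%) and 56.2% in HH HFD (54.3% to 58.0%). The intervals of the SCD libraries overlapped, and those of WT HFD and HH HFD lay apart from them and from each other. Without thinning the shares were 98.1% to 99.5%. Glucagon cells, which served as the background, held a Prlr UMI in 0.733% to 2.06% of cells at 3000 UMIs and in 5.09% to 8.23% unthinned, at median depths of 9991 to 15998 UMIs. At 10000 UMIs per insulin cell the variance of Prlr UMIs was 1.62 to 1.87 times the mean, with a median of 3 or 4 UMIs, whereas for Ghr it was 1.03 to 1.09 times the mean. Prlr counts thus varied between insulin cells by more than Poisson sampling gives, in each of the 4 libraries.

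Between libraries, Prlr differed with diet and, on HFD, with genotype. The log2 ratio of HH to WT was -0.02 on SCD (counting interval -0.05 to 0.003), so no difference was detectable there. On HFD it was -0.33 (-0.36 to -0.30). The alpha markers summed to 1458 CPM in insulin cells of WT HFD and 2945 CPM in those of HH HFD, mostly Ttr (1335 and 2739 CPM), with Gc at 58.0 and 148 CPM, and the PP markers to 443 and 999 CPM. Their part in the Prlr difference was not tested. In the 639 insulin cells of HH HFD with no Mafa UMI and a UMI of Gc, Aldh1a3 or Serpina7 at 3000 UMIs per cell, Prlr stood at 294 CPM, and in the other 2171 at 311 CPM (306 to 315), against 374 CPM and 387 CPM (380 to 394) in the same classes of WT HFD. The ratio of HFD to SCD was -0.26 in WT (-0.29 to -0.22) and -0.56 in HH (-0.59 to -0.54), which is lower in HFD for both genotypes. The median of 8338 genes with a mean of at least 5 CPM in insulin cells was -0.09, -0.14, -0.03 and -0.06 in these 4 comparisons. Among these genes 71.9%, 14.7%, 18.6% and 7.08% had a lower ratio than Prlr. With size factors from the median of gene ratios, which set that median near 0, the HH over WT ratio was 0.07 on SCD and -0.20 on HFD, so the SCD value changed sign and the HFD value did not.

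The 5 members at or above 5 CPM in insulin cells were Prlr, Ghr, Stat5b, Cish and Socs2. Past 1.5-fold, 1 of the 5 (Cish) was lower in HH SCD than in WT SCD, beside 0.468% of all genes lower and 0.144% higher. In HH HFD against WT HFD 1 of the 5 (Socs2) was lower, beside 2.07% of all genes lower and 0.792% higher. None was past 1.5-fold in WT HFD against WT SCD, where 4.49% of all genes were lower and 1.21% higher. In HH HFD against HH SCD, Socs2 was lower and Cish higher, beside 6.56% lower and 2.40% higher. These comparisons share libraries, so they are given side by side and are not independent of each other.

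**Figure D3:**
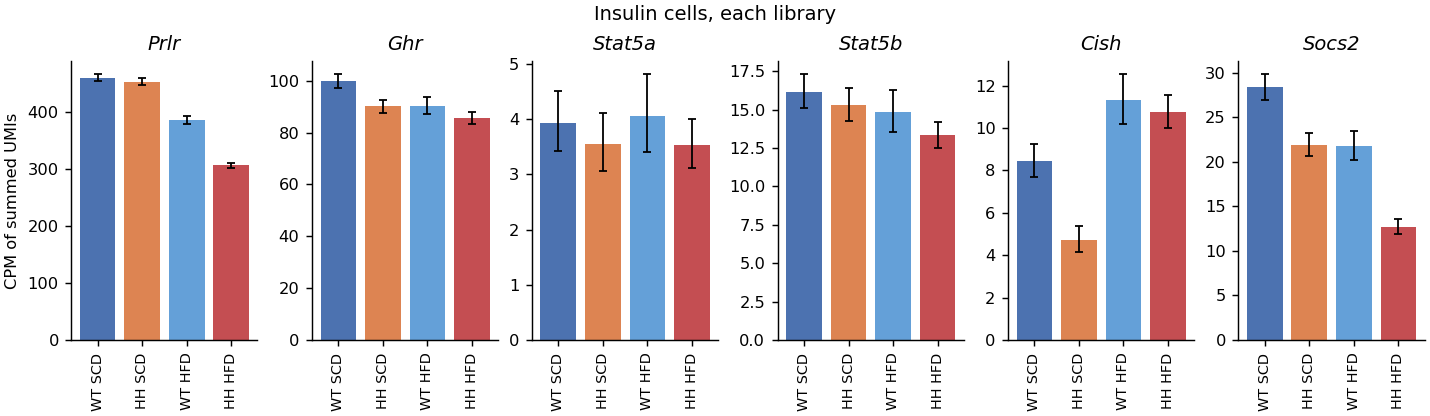
Level of 6 member genes in insulin cells (CPM of summed UMIs, bars from 0) in each of the 4 libraries, with 95% Poisson counting intervals. Prlr and Socs2 were lowest in HH HFD, at 307 and 12.7 CPM, and Cish was lowest in HH SCD, at 4.73 CPM.

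Ghr, the growth hormone receptor (chromosome 15, 3317760 to 3583492, minus strand), was measured in every hormone group. In insulin cells it stood at 99.7 CPM in WT SCD, 90.1 CPM in HH SCD, 90.4 CPM in WT HFD and 85.6 CPM in HH HFD. Its level was 116 to 131 CPM in somatostatin cells, 37.3 to 48.6 CPM in glucagon cells, 34.7 to 42.6 CPM in PP cells and 21.03 to 37.0 CPM in hormone-free cells. The order of insulin and somatostatin cells depended on scaling. With TMM factors, Ghr was higher in insulin cells than in somatostatin cells by 0.52 (SE 0.09, adjusted p = 5.9e-05, edgeR), and with scaling to total counts it was lower, at -0.45 (adjusted p = 0.00031). That change of scaling moved the median of all genes from 0.03 to -0.94 in this contrast. Against glucagon, PP and hormone-free cells Ghr was higher in insulin cells under both scalings, by 1.68, 1.54 and 2.92 with TMM (SE 0.09 to 0.11, adjusted p of 3.0e-10 or less, edgeR) and by 1.08, 1.22 and 1.84 with total counts. Insulin cell RNA amounted to at most 11.2% of the observed Ghr level in any other group.

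In insulin cells Ghr differed little between libraries. The log2 ratio was -0.15 for HH over WT on SCD, -0.08 for HH over WT on HFD, -0.14 for HFD over SCD in WT and -0.07 for HFD over SCD in HH, and all 4 counting intervals lay below 0. Of all genes, 31.3%, 62.8%, 32.0% and 48.4% had a lower ratio than Ghr in these comparisons, and the HH over WT ratio on HFD was 0.05 with median-of-ratios size factors. Somatostatin cells, where Ghr reached 131 CPM, gave ratios of -0.09 to 0.17 with intervals that all included 0. Among hormone-free cells Ghr was 74.4 CPM in PP-like cells (48.1 to 110, 25 UMIs), 32.2 CPM in endothelial-like and 33.4 CPM in stromal-like cells, and 1.45 CPM in lymphocyte-like cells.

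Stat5a and Stat5b encode the STAT5 proteins and lie next to each other on chromosome 11, Stat5b at 100780731 to 100850724 on the minus strand and Stat5a at 100859351 to 100885169 on the plus strand. The 3-prime end of Stat5a overlaps Stat3 on the opposite strand. Stat5b stood at 16.2, 15.3, 14.9 and 13.3 CPM in insulin cells of WT SCD, HH SCD, WT HFD and HH HFD, and Stat5a at 3.94, 3.56, 4.06 and 3.54 CPM. Of their 8 ratios between libraries only that of Stat5b for HFD over SCD in HH, at -0.20 (-0.34 to -0.06), had an interval that did not include 0. Stat5b was higher in insulin cells than in PP cells by 0.88 (SE 0.13, adjusted p = 2.5e-05, edgeR with TMM) and by 0.56 with total counts. Against glucagon and somatostatin cells its differences were 0.47 and 0.70 with TMM (adjusted p = 0.00079 and 3.2e-05, edgeR) and -0.13 and -0.27 with total counts, so the direction turned with the scaling. Stat5a was called higher only against PP cells (1.25, SE 0.42, adjusted p = 0.021, edgeR), on 17 UMIs in PP cells, and this call was lost without HH SCD (adjusted p = 0.14), with total counts (0.93, adjusted p = 0.072) and with a looser cell filter (0.93, adjusted p = 0.092). Lymphocyte-like cells held 31.2 CPM of Stat5a (counting interval 22.6 to 42.0, 43 UMIs), above the 2.58 CPM of endothelial-like cells (1.18 to 4.91), whose Stat5b stood at 38.8 CPM. The Stat5a level of lymphocyte-like cells was 40.1 CPM in WT SCD, 77.2 CPM in HH SCD, 35.4 CPM in WT HFD (31 of the 43 UMIs) and 6.15 CPM (0.75 to 22.2) in HH HFD. These cells came from a cluster led by B cell genes, with 50 cells in WT HFD and 29 in HH HFD, and a T cell cluster, with 39 cells in WT HFD and 0 in HH HFD, and the SCD libraries held 9 lymphocyte-like cells each.

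Cish, a STAT5-induced inhibitor that docks on the receptors (chromosome 9, 107296026 to 107302784, plus strand), had the largest ratio between libraries of the members measured at 5 CPM or more in insulin cells. Its level there was 8.44 CPM in WT SCD (450 UMIs), 4.73 CPM in HH SCD (246 UMIs), 11.3 CPM in WT HFD (371 UMIs) and 10.8 CPM in HH HFD (749 UMIs). HH SCD was thus the lowest library and the HFD libraries the highest. The log2 ratio of HH to WT was -0.83 on SCD (-1.06 to -0.61) and -0.07 on HFD (-0.25 to 0.11), and the ratio of HFD to SCD was 0.42 in WT (0.22 to 0.63) and 1.19 in HH (0.98 to 1.40). In the 639 insulin cells of HH HFD with no Mafa UMI and a UMI of Gc, Aldh1a3 or Serpina7 at 3000 UMIs per cell, Cish stood at 8.09 CPM, against 11.7 CPM in the other 2171. On SCD 0.192% of the 8338 genes had a lower HH over WT ratio than Cish, and 99.7% had a lower HFD over SCD ratio in HH.

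The other hormone groups also held more Cish in HFD than in SCD. Somatostatin cells held 9.05 CPM in WT SCD, 16.9 CPM in HH SCD, 54.5 CPM in WT HFD and 46.8 CPM in HH HFD. Genes past 1.5-fold higher made up 10.4% of all genes in WT and 10.7% in HH in these cells. The HFD over SCD ratio of Cish was 2.59 in WT (1.98 to 3.23) and 1.47 in HH (0.98 to 1.98), and the levels of the SCD and HFD libraries did not overlap. The same ratio was 1.22 and 1.19 in glucagon cells and 2.71 and 1.03 in PP cells, with every interval above 0 and as few as 5 UMIs in PP cells of WT SCD. In PP cells the lymphocyte markers summed to 0.503, 0.428, 32.4 and 828 CPM in WT SCD, HH SCD, WT HFD and HH HFD. Ighm made up 0, 0, 15.2 and 781 CPM of these sums, and Cd3e, Cd3d and Trbc2 were at 0. Macrophage markers in PP cells summed to 39.8, 41.1, 86.9 and 173 CPM. In glucagon cells the lymphocyte markers summed to 2.64, 5.34, 9.22 and 298 CPM and the macrophage markers to 159, 74.0, 77.8 and 138 CPM, and in somatostatin cells to 5.31 to 15.4 CPM and 92.4 to 125 CPM. Lymphocyte-like cells held 13.8 CPM of Cish (8.29 to 21.5) and macrophage-like cells 8.31 CPM (3.34 to 17.1), and the part of such RNA in the Cish ratios was not tested. Ratios of HH to WT on SCD went the other way from insulin cells in somatostatin cells (0.90, 0.21 to 1.61) and PP cells (1.77, 0.31 to 3.54), and in glucagon cells the interval included 0 (0.26, -0.46 to 0.99). With cells thinned to 3000 UMIs, Cish was found in 2.64%, 5.59%, 12.3% and 14.3% of somatostatin cells of WT SCD, HH SCD, WT HFD and HH HFD, and in 2.71%, 1.28%, 4.27% and 3.70% of insulin cells. The order of the libraries by share was that of the CPM values in insulin cells, and in somatostatin cells the HFD libraries changed places.

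Hormone-free cells showed the opposite direction. Cish stood at 70.2 CPM in WT SCD, 52.4 CPM in HH SCD, 16.9 CPM in WT HFD and 23.3 CPM in HH HFD, and the values of the SCD and HFD libraries did not overlap. Of all genes in these cells 18.6% in WT and 13.5% in HH were past 1.5-fold lower in HFD. The mix of cell types among hormone-free cells differed between libraries, so endothelial-like cells (497 cells, 83 to 175 per library) were also taken alone. Their Cish level was 83.8 CPM in WT SCD, 69.9 CPM in HH SCD, 31.4 CPM in WT HFD and 36.4 CPM in HH HFD, and the HFD over SCD ratio was -1.41 in WT (-2.07 to -0.78) and -0.94 in HH (-1.62 to -0.26). Ductal-like cells had 111 CPM (81.8 to 146) over 51 cells, of which 34 of 49 UMIs came from WT SCD. In insulin cells of WT SCD, HH SCD, WT HFD and HH HFD the ductal markers summed to 737, 712, 345 and 331 CPM. Krt8 made up 400, 386, 110 and 96.9 CPM of these sums and Krt18 242, 242, 148 and 132 CPM. Both genes stood higher in glucagon, somatostatin and PP cells of the same library. Epcam stood at 81.1 to 85.5 CPM in insulin cells and Krt19 at 1.95, 0.192, 0.0916 and 0.446 CPM. Spp1 stood at 7.22, 2.73, 4.40 and 20.01 CPM there, and Sox9 at or below 0.245 CPM. The endothelial markers summed to 35.2, 13.0, 13.9 and 26.95 CPM in insulin cells and the stromal markers to 16.1, 4.83, 6.84 and 21.3 CPM. Plvap stood at 10.01, 2.87, 2.47 and 6.71 CPM and Dcn at 6.75, 0.500, 0.183 and 6.12 CPM in the order of the libraries above. The part of ductal, endothelial and stromal cells in the Cish values was not tested. Across the 4 libraries edgeR called Cish lower in insulin than in hormone-free cells (-1.06, SE 0.45, adjusted p = 0.040), a call that was lost without WT SCD (adjusted p = 0.24) or without HH SCD (adjusted p = 0.24) and with no library block (adjusted p = 0.066), and its differences from glucagon, somatostatin and PP cells did not pass the threshold (adjusted p = 0.71, 0.15 and 0.97). With total counts Cish was lower in insulin than in somatostatin cells, by a difference of -1.75 that passed (edgeR adjusted p = 0.0012). The difference from hormone-free cells was then -2.16 (edgeR adjusted p = 0.00023).

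**Figure D4:**
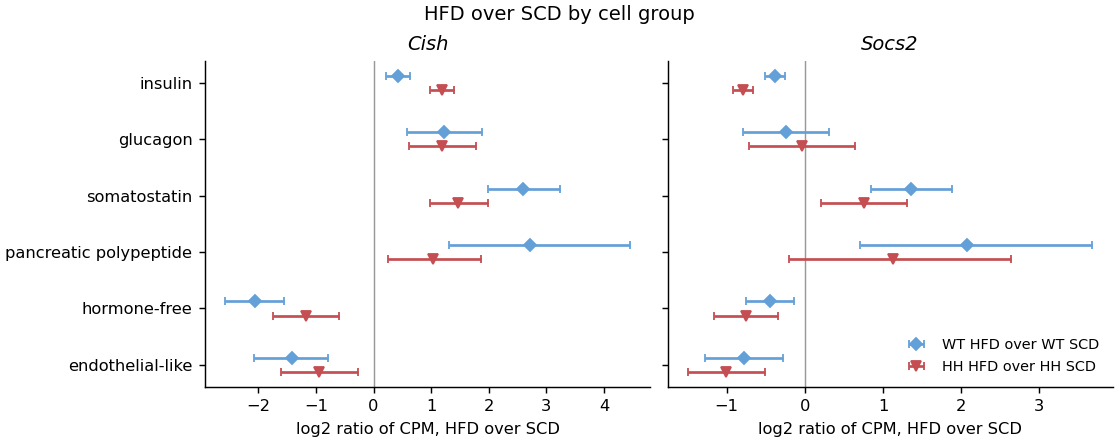
Log2 ratio of HFD over SCD (horizontal axis) for Cish and Socs2 in each cell group, with diamonds for WT and triangles for HH and bars for 95% counting intervals. Cish ratios lie above 0 in all 4 hormone groups and below 0 in hormone-free and endothelial-like cells. Socs2 ratios lie below 0 in insulin and endothelial-like cells and above 0 in somatostatin cells.

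Socs2, an inhibitor that limits growth hormone signalling (chromosome 10, 95385362 to 95417180, minus strand), followed another pattern. In insulin cells it stood at 28.3 CPM in WT SCD, 21.9 CPM in HH SCD, 21.8 CPM in WT HFD and 12.7 CPM in HH HFD. It was lower in HH on both diets, with log2 ratios of -0.37 on SCD (-0.48 to -0.26) and -0.78 on HFD (-0.92 to -0.63), and lower in HFD in both genotypes, with -0.38 in WT (-0.51 to -0.25) and -0.79 in HH (-0.92 to -0.66). Of all genes, 2.17% and 0.660% had a lower HH over WT ratio than Socs2 on SCD and on HFD. The 4 Socs2 ratios stayed below 0 under each alternative run on them, scaling included. In HH HFD the level was 10.3 CPM (8.88 to 12.0) in the 639 insulin cells with no Mafa UMI and a UMI of Gc, Aldh1a3 or Serpina7, and 13.5 CPM (12.5 to 14.5) in the other 2171, both below the 21.8 CPM of WT HFD.

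In somatostatin cells Socs2 was higher in HFD. It stood at 16.9 CPM in WT SCD, 17.2 CPM in HH SCD, 43.2 CPM in WT HFD and 29.0 CPM in HH HFD, and the HFD over SCD ratio was 1.36 in WT (0.85 to 1.88) and 0.75 in HH (0.20 to 1.31). Glucagon cells gave -0.24 and -0.03 with intervals that included 0, and their HH over WT ratio on SCD was -0.80 (-1.40 to -0.22). PP cells gave 2.07 (0.70 to 3.68) in WT and 1.13 (-0.20 to 2.63) in HH, on 6 to 20 UMIs per library. Endothelial-like cells held 105, 130, 61.0 and 64.9 CPM in WT SCD, HH SCD, WT HFD and HH HFD, which is lower in HFD as in insulin cells (-0.78 and -1.01). Over all libraries Socs2 was higher in insulin than in glucagon cells by 1.62 (SE 0.25, adjusted p = 2.1e-05) and than in PP cells by 2.09 (SE 0.34, adjusted p = 5.8e-05), and lower than in hormone-free cells (-0.76, SE 0.22, adjusted p = 0.0042), all by edgeR with TMM. With total counts these values were 1.03, 1.77 and -1.84. The difference from hormone-free cells was -0.049 and no longer called when hormone groups needed at least 20% of a cell's UMIs (adjusted p = 0.82). The difference from somatostatin cells was 0.69 (SE 0.24, adjusted p = 0.024), but -0.29 with total counts, and it did not pass with DESeq2 (adjusted p = 0.099), without the library block (adjusted p = 0.074), without WT SCD (0.37, adjusted p = 0.24) or without HH SCD (0.48, adjusted p = 0.19). Lymphocyte-like cells held 74.7 CPM, with 96 of their 103 UMIs in WT HFD, the library that also held 39 of the 42 cells of the T cell cluster. The 88 macrophage-like cells held no Socs2 UMI, which allows up to 4.38 CPM.

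**Figure D5:**
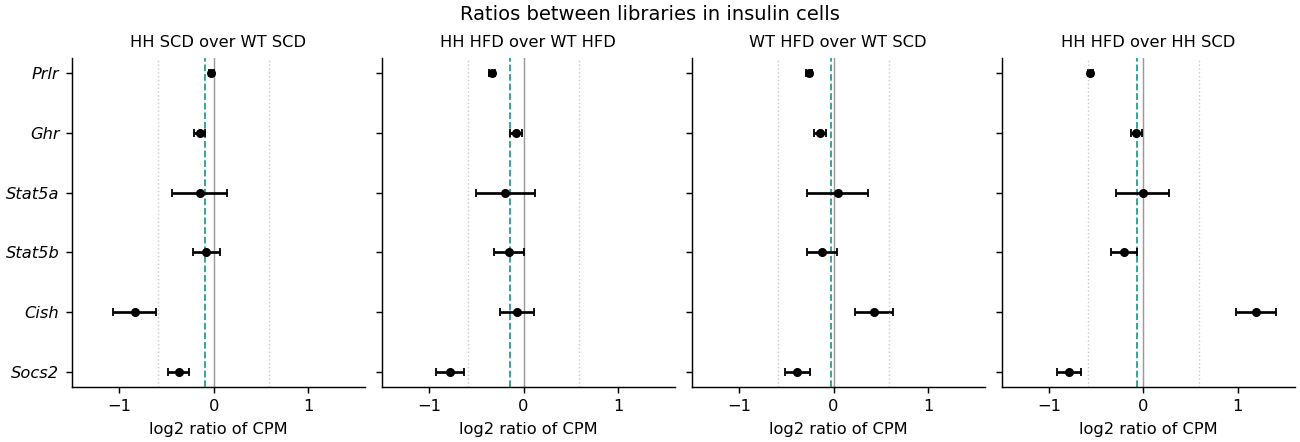
Log2 ratios of CPM between libraries in insulin cells (horizontal axis) for 6 member genes, with 95% counting intervals. The solid line marks 0, the dashed line the median of all 8338 genes and the dotted lines 1.5-fold. Socs2 lies below the dashed line in all 4 comparisons, from -0.37 to -0.79, and Cish lies at -0.83 in HH SCD over WT SCD and at 1.19 in HH HFD over HH SCD.

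Tph1, the target of lactogen signalling in pregnant islets (chromosome 7, 46644641 to 46672537, minus strand), was almost absent from the counts. A total of 4 UMIs was counted over all 22218 barcodes, all in WT SCD, and 1 of them in an insulin cell. The upper bound of the level was 0.0531 to 0.113 CPM per library in insulin cells, so no comparison was possible. Tph2 (chromosome 10, 115078641 to 115185022, minus strand) was counted with 23, 26, 5 and 15 UMIs in insulin cells of WT SCD, HH SCD, WT HFD and HH HFD, or 0.431, 0.500, 0.153 and 0.216 CPM. The log2 ratio of HH to WT had an interval that included 0 on each diet, and that of HFD to SCD was -1.498 in WT (-3.25 to -0.07) and -1.21 in HH (-2.23 to -0.24).

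The response genes were compared between insulin cells with few and with many Prlr UMIs at 10000 UMIs per cell. In WT SCD the low group of 808 cells and the high group of 645 cells held 30.3 and 29.3 CPM of Socs2 and 8.66 and 8.53 CPM of Cish. In HH HFD the values were 14.5 and 12.2 CPM for Socs2 and 10.9 and 14.4 CPM for Cish, in 1259 and 624 cells. The log2 ratio of the high to the low group had a counting interval that included 0 for Socs2, Stat5a and Stat5b in each of the 4 libraries and for Cish in WT SCD, HH SCD and WT HFD, so a difference was not detectable there at this depth. For Cish in HH HFD the ratio was 0.41 (0.0064 to 0.80). Ghr was higher in the high group in WT SCD (92.9 and 109 CPM, ratio 0.23, 0.08 to 0.38), WT HFD (85.1 and 103 CPM, 0.28, 0.04 to 0.52) and HH HFD (79.7 and 94.1 CPM, 0.24, 0.09 to 0.39). In HH SCD, at 90.8 and 95.2 CPM, the interval of the Ghr ratio included 0 (-0.09 to 0.23).

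The genes most like each member over the 20 sums of 4 libraries and 5 cell groups were found by Pearson correlation of log2(CPM + 1) among 12534 genes, which share libraries, depth and cell type. For Prlr they were Ins1 (r = 0.98), Mafa (0.98) and Ins2 (0.98). Ins1 and Ins2 UMIs defined the insulin cells, so likeness to them restates the level of Prlr by cell group. Mafa, a transcription factor of mature beta cells, stood at 394, 359, 312 and 194 CPM in insulin cells of WT SCD, HH SCD, WT HFD and HH HFD, the same order as Prlr. For Ghr they were Pip5k1b, Klhl32 and Acly (0.96 to 0.98), for Stat5b E2f4, Nav1 and Meox1 (0.94 to 0.96), and for Socs2 Tmem9b, Psap and Atp8a1 (0.93 to 0.94). Stat5a was most like Xpot, Gtpbp2 and Stat5b (0.85 to 0.88) and Cish most like Tnfsf9, Tusc2 and Zdhhc16 (0.87 to 0.88).

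Among the other JAK and STAT genes, 5 of 9 were measured at 5 CPM or more in insulin cells. For this list and those that follow, the genes past 1.5-fold stand beside 0.468% of all genes lower and 0.144% higher for HH over WT on SCD, 2.07% and 0.792% on HFD, 4.49% and 1.21% for HFD over SCD in WT, and 6.56% and 2.40% in HH. The STAT5 kinase gene Jak2 stood at 10.6, 9.44, 7.05 and 6.83 CPM in WT SCD, HH SCD, WT HFD and HH HFD, lower in both HFD libraries (log2 ratio -0.59 in WT and -0.47 in HH). Stat3, which carries signals of IL-6 family receptors, stood at 81.2, 78.8, 43.6 and 39.9 CPM, with HFD over SCD ratios of -0.90 and -0.98. The median ratio of the 5 genes was -0.17 for HH over WT on SCD, -0.24 on HFD, -0.33 for HFD over SCD in WT and -0.47 in HH, each below the median of all genes.

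Of 17 genes of other inhibitors and phosphatases, 14 were measured. Past 1.5-fold were 0 of the 14 between HH and WT on either diet, near the share of all genes. Their median ratios were -0.19 on SCD and -0.12 on HFD. The highest HH over WT ratio was that of Ptpn6 on both diets (0.03 and 0.06), and the lowest that of Socs4 on SCD (-0.36) and of Socs6 on HFD (-0.48). Ptpn2, a phosphatase of JAK and STAT proteins, was lower in HFD in WT (-0.75) and in HH (-0.59), and so was Socs3, an inhibitor induced by STAT3 (-0.45 in WT and -0.60 in HH).

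Of 20 further cytokine receptors 8 were measured, with median ratios of -0.16 for HH over WT on SCD and -0.07 on HFD. Csf2ra, a subunit of the GM-CSF receptor, had the lowest ratio on both diets (-0.25 and -0.47), and Ifngr1 on SCD (0.08) and Crlf2 on HFD (0.38) the highest. Crlf2 (0.70) and Ifnar2 (0.75) were past 1.5-fold higher in HH HFD than in HH SCD. All 7 ligand genes stayed below 5 CPM in insulin cells, and Prl, Prl3b1, Prl3d1, Prl8a9 and Gh were at 0 UMIs there.

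Of 18 genes tied to pregnancy and prolactin in beta cells, 10 were measured, with median ratios of -0.13 for HH over WT on SCD and -0.12 on HFD. Slc2a2, the glucose transporter gene, was the only one past 1.5-fold. It stood at 295 CPM in WT SCD, 269 CPM in HH SCD, 300.4 CPM in WT HFD and 153 CPM in HH HFD, so HH HFD lay apart, with a ratio of -0.98 to WT HFD and of -0.82 to HH SCD. The lowest HH over WT ratio on SCD was that of Matn2 (-0.38), with Ivd the highest (-0.0048), and on HFD the highest was that of Cdkn2c (0.47).

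Of 18 serotonin genes 10 were measured, with median ratios of -0.02 for HH over WT on SCD and -0.03 on HFD. Gch1, which makes the hydroxylase cofactor, stood at 111 CPM in WT SCD, 117 CPM in HH SCD, 88.4 CPM in WT HFD and 74.3 CPM in HH HFD, and its ratio of HH HFD to HH SCD was -0.66. Qdpr (0.20) and Chga (-0.15) on SCD and Pcbd1 (0.13) and Maob (-0.41) on HFD marked the range of HH over WT. Ddc, which encodes the second enzyme of serotonin synthesis and was chosen after its values were seen, stood at 158 to 162 CPM.

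The STAT5 targets known from other tissues were measured in 5 of 10 cases. Past 1.5-fold were 0 of the 5 in each of the 4 comparisons, which at these shares of all genes is no result about the list. Their median ratios were -0.28 for HH over WT on SCD and -0.14 on HFD, beside -0.09 and -0.14 for all genes. Ccnd1, a cyclin gene, had the highest HH over WT ratio on both diets (-0.04 and -0.04), and the lowest were Mcl1 on SCD (-0.30) and Bcl2l1 on HFD (-0.34), both survival genes.

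The same lists were counted between cell groups by edgeR, with TMM, as genes higher and lower in insulin cells than in glucagon, somatostatin, PP and hormone-free cells in this order, beside 26.7%, 26.2%, 23.5% and 37.7% of all genes higher and 23.9%, 25.0%, 20.6% and 38.8% lower. Of 8 JAK and STAT genes tested 1, 3, 2 and 0 were higher and 2, 1, 1 and 6 lower. Of 16 inhibitors and phosphatases 3, 5, 4 and 3 were higher and 4, 3, 1 and 9 lower. Of 14 cytokine receptors 2, 2, 2 and 0 were higher and 2, 2, 1 and 13 lower. The split of all these lists moved with the scaling, as that of all genes did. With total counts, where 59.3%, 75.5%, 36.0% and 70.0% of all genes were lower and 9.60%, 4.98%, 12.1% and 13.6% higher, the lower genes numbered 4, 6, 1 and 8 for JAK and STAT genes, 11, 15, 6 and 13 for inhibitors and phosphatases, and 3, 8, 3 and 14 for cytokine receptors. The higher genes numbered 0, 1, 1 and 0 for JAK and STAT genes, 0, 1, 1 and 0 for inhibitors and phosphatases, and 1, 1, 2 and 0 for cytokine receptors.

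Of 13 pregnancy and prolactin genes 7, 7, 8 and 6 were higher and 2, 2, 0 and 4 lower, and with total counts 4, 3, 6 and 4 were higher and 4, 5, 2 and 6 lower. Of 11 serotonin genes 8, 6, 6 and 8 were higher and 2, 4, 4 and 3 lower, and with total counts 5, 3, 6 and 6 were higher and 4, 6, 4 and 3 lower. Of 10 STAT5 targets of other tissues 1, 2, 1 and 1 were higher and 5, 2, 5 and 9 lower, and with total counts 0, 0, 1 and 1 were higher and 5, 6, 5 and 9 lower. The 1 ligand gene tested was lower than in hormone-free cells and not called in the other contrasts under both scalings.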

How the data were processed

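Islet cells of 4 libraries were read from the deposited matrices of UMI counts, which the authors made, per the labels, with Cell Ranger 6.0 on mm10, with no normalization. The study's corrections for ambient RNA and doublets are not part of these matrices. Each library pooled the islets of 2 to 3 male mice, with totals of 68011082 to 104810105 UMIs, so tests between libraries were not made.

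Cells with under 10% mitochondrial UMIs, 3000 to 50000 UMIs and 2000 to 5000 genes were kept. Scrublet scores (scanpy 1.11.5) ranked doublets, and the highest scores were removed at 0.8% per 1000 barcodes (86 to 250 cells per library), because the automatic threshold marked under 0.5% in both HFD libraries. A cell joined a hormone group where that hormone made up at least 5% of its UMIs and 2 times the next. Hormone-free cells were clustered and named from marker lists. UMIs were summed per library and group and given as CPM of all UMIs, with 95% Poisson intervals. Ratios have exact conditional binomial intervals and need more than 3 counts in at least 1 library. Tests between hormone groups used edgeR 4.0.16 (R 4.3.3), quasi-likelihood, TMM, filterByExpr, library as block and Benjamini-Hochberg adjustment at 0.05, over n = 4 libraries. DESeq2 1.42.0 was an alternative. On simulated data for insulin against glucagon cells (10646 genes, 200 changed), edgeR recovered 68.9% of the 2-fold and 100% of the 4-fold changes. Coordinates are from GENCODE M21 on GRCm38.

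The members and lists were chosen with earlier results of these data known. Named genes were the members, per list the genes with the highest and lowest HH over WT ratio on each diet among those of at least 5 CPM in insulin cells, list genes past 1.5-fold with intervals apart, and the 3 genes most like each member. Some genes are not reported here. Alternatives changed the cell filter, doublets, hormone thresholds, scaling, cell weights, thinning, expression minimum, block and libraries.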

Additional observations from a re-analysis of the deposited data

Results flagged for a closer look

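In 7 cases a member's ratio between libraries had the opposite sign in another cell group than in insulin cells, with both intervals clear of 0. The difference between cell groups was not tested, since each condition was 1 library.

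For Cish the log2 ratio of HH SCD to WT SCD was 0.90 in somatostatin cells and 1.77 in PP cells, against -0.83 in insulin cells. The Cish ratio of HFD to SCD in hormone-free cells was -2.06 in WT, against 0.42 in insulin cells, and -1.17 in HH, against 1.19 in insulin cells.

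For Socs2 the ratio of WT HFD to WT SCD was 1.36 in somatostatin cells and 2.07 in PP cells, against -0.38 in insulin cells. The Socs2 ratio of HH HFD to HH SCD was 0.75 in somatostatin cells, against -0.79 in insulin cells.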

How the results depend on the processing

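All 28 ratios of members in insulin cells kept their direction and size, within the counting interval, under a looser cell filter, with doublets kept, with hormone minimums of 2% and 20%, with a hormone ratio of 10 and with equal weight for each cell. Scaling without hormone and mitochondrial genes gave 0.037 for Prlr and -0.086 for Ghr (HH SCD over WT SCD) and -0.22 for Prlr (WT HFD over WT SCD). Median-of-ratios size factors gave Prlr ratios of 0.069 and -0.20 (HH over WT on SCD and HFD) and -0.22 and -0.49 (HFD over SCD in WT and HH), and Ghr ratios of -0.055 and 0.051 (HH over WT) and -0.0045 (HFD over SCD in HH). The next alternatives were chosen after seeing the data. Insulin cells of 20000 to 30000 UMIs gave 0.032 and -0.29 for Prlr (HH over WT on SCD and HFD), 0.0091 (HH over WT on HFD) and -0.39 (HFD over SCD in WT) for Stat5b and -0.92 for Socs2 (HFD over SCD in HH). Insulin cells without UMIs of Mki67, Top2a, Gc, Aldh1a3 or Serpina7 gave 0.0077, -0.29 and -0.54 for Prlr (HH over WT on SCD and HFD, HFD over SCD in HH), -0.15 for Ghr (HH over WT on HFD), 0.43 for Stat5a (HFD over SCD in WT), -0.22 for Stat5b (HH over WT on SCD), -1.13 and 1.67 for Cish (HH over WT on SCD, HFD over SCD in HH) and -0.58 for Socs2 (HFD over SCD in HH). The causes were not tested.

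Between cell groups, Prlr was higher in insulin cells under every edgeR alternative and DESeq2. The run with insulin cell RNA subtracted from the other groups could not have lowered this difference. With total-count scaling, chosen after seeing the data, 1215 genes were higher and 7504 lower against glucagon cells, 630 and 9556 against somatostatin cells, 1532 and 4562 against PP cells, and 1719 and 8858 against hormone-free cells, where TMM gave 3377 and 3031, 3322 and 3164, 2978 and 2605, and 4778 and 4915. The log2 differences were then -0.012 (Stat5a), -0.13 (Stat5b) and -0.36 (Cish) against glucagon cells, -0.45 (Ghr), -0.28 (Stat5a), -0.27 (Stat5b), -1.75 (Cish) and -0.29 (Socs2) against somatostatin cells, 0.93 (Stat5a) against PP cells, and -1.33 (Stat5a) and -0.88 (Stat5b) against hormone-free cells. Of these, Cish against somatostatin cells and Stat5a and Stat5b against hormone-free cells gained a call. Stat5b against glucagon cells, Socs2 against somatostatin cells and Stat5a against PP cells lost it. Ghr and Stat5b against somatostatin cells were called in the opposite direction. Socs2 against somatostatin cells was 0.63 with DESeq2 and 0.68 with no library block, both without the call, and Stat5a was 0.76 with no filter on low counts, a gained call. Cish against PP cells was 0.045 with DESeq2, 0.054 with no filter, 0.054 at a hormone minimum of 20% and 0.0058 at a hormone ratio of 10. Stat5a with the looser cell filter was 0.93 against PP cells, a lost call, and -0.72 against hormone-free cells, a gained call. At the hormone minimum of 20% Stat5a was 0.20, Stat5b 0.54 (a gained call) and Socs2 -0.049 (a lost call) against hormone-free cells. Cish against hormone-free cells was -1.06 with no library block, a lost call.

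Leaving out each library in turn gave -1.11 to -0.52 for Cish and 0.37 to 0.95 for Socs2 against somatostatin cells, 0.91 to 1.67 for Stat5a and -0.32 to 0.12 for Cish against PP cells, and -0.51 to 0.081 for Stat5a, 0.083 to 0.33 for Stat5b and -1.502 to -0.53 for Cish against hormone-free cells. Without WT SCD, Cish passed the threshold against somatostatin cells (edgeR adjusted p = 0.018), and without WT HFD, Stat5b passed it against hormone-free cells (edgeR adjusted p = 0.027).

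Thinned to 10000 UMIs, 96.5%, 96.1%, 93.9% and 91.7% of insulin cells of WT SCD, HH SCD, WT HFD and HH HFD held a Prlr UMI, and 99.1%, 99.3%, 99.5% and 98.1% unthinned. With a minimum of 20 CPM, 0.251% of genes were past 1.5-fold in HH SCD over WT SCD, 4.87% in WT HFD over WT SCD and 8.27% in HH HFD over HH SCD, and the list genes past it numbered 1 in HH HFD over WT HFD, 1 in WT HFD over WT SCD and 4 in HH HFD over HH SCD. No paired analysis was possible because each group was 1 library; the library block pairs cell groups of the same library.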
